A study of Mus musculus with 4 samples.

Results

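The Kruppel-like factor genes are described here in Dll1-positive mouse mammary tumor cells from tumors with and without targeted radiation. The members are the 10 rows of the 4-library read count table named Klf2, Klf3, Klf4, Klf5, Klf6, Klf7, Klf9, Klf10, Klf11 and Klf13, among 54532 genes in all. All 10 passed the filter on low counts and were tested, with 15993 genes in the test as a whole. The other 7 genes of the family in the table, Klf1, Klf8, Klf12, Klf14, Klf15, Klf16 and Klf17, are given only for comparison.

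The cells came from primary breast tumors of C57BL/6 mice that arose after MFP injection of PyMT-Dll1+ cells, in which the polyoma middle T oncogene is driven by the MMTV promoter and Dll1, a Notch ligand gene, is reported by mCherry. Tumor cells were enriched from digested tumors by sorting with antibodies to CD45 (leukocytes), CD31 (endothelium) and TER119 (red cells), and the mCherry-positive cells among them were used. Both groups carry the oncogene and the reporter: 2 libraries came from unirradiated tumors and 2 from tumors given targeted radiation at day 30. The radiation dose and the time of harvest are not stated in the labels. Whether the 2 libraries of a group are from different animals is not stated in the labels, so every p-value below rests on the spread between libraries and that spread may be technical.

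Kruppel-like factors are DNA-binding proteins with C2H2 zinc fingers at the C-terminus that bind GC-rich and CACCC sequences. Their N-terminal parts differ: Klf3 recruits the CtBP corepressors, Klf9, Klf10, Klf11 and Klf13 recruit Sin3A, and Klf2, Klf4, Klf5, Klf6 and Klf7 act largely as activators, although Klf4 also represses. In epithelia Klf5 is known for supporting proliferation and Klf4 for cell cycle arrest and differentiation. Klf2 is best known from endothelium and resting lymphocytes, where it maintains quiescence. Klf2, Klf4, Klf6 and Klf10 are also early response genes whose transcripts increase within a short time of a stimulus, including the enzymatic digestion of tissue.

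The 3 most abundant members, Klf6, Klf4 and Klf2, carry most of the values below, so the 250 bases before the start of each are shown. The sequences are from RefSeq, build GRCm38.p6, the same assembly as the mm10 build of the counts. The starts are those of RefSeq, which for Klf2 and Klf6 lie inside the GENCODE gene bounds given further on. They read 5′ to 3′ along the strand of the gene: Klf2 at chr8:72318812-72319061 on the plus strand, Klf4 at chr4:55532476-55532725 on the minus strand and Klf6 at chr13:5861239-5861488 on the plus strand. Capitals mark GC boxes, which read GGGCGG on either strand. They also mark CCAAT boxes, the core of a MEF2 site (CTANNNNTAG) and the letters CACCC, again on either strand.
Klf2: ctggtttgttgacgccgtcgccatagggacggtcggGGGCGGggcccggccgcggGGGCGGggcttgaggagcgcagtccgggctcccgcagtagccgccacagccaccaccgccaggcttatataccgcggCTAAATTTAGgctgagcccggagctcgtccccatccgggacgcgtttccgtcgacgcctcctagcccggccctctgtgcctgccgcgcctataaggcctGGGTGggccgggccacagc
Klf4: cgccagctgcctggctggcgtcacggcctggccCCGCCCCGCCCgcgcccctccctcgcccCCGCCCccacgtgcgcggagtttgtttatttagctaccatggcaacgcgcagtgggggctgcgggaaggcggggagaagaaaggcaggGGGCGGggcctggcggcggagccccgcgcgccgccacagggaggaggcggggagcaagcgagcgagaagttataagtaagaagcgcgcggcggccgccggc
Klf6: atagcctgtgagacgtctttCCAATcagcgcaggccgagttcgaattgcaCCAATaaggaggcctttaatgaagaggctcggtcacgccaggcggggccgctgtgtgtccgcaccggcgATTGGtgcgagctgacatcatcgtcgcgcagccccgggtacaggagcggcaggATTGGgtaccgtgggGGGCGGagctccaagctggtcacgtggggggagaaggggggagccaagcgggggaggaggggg

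These promoters are rich in GC and differ in the boxes they hold. Klf2 holds 2 GC boxes, the MEF2 core from 118 to 109 bases before the start and CACCC on the minus strand from 19 to 15 bases before it. Klf4 holds 4 GC boxes of which a pair shares 1 base, and Klf6 holds 4 CCAAT boxes and 1 GC box. Of the 10 members 8 were found in the promoter table, all but Klf5 and Klf10, with a median GC content of 71.4% against 52.4% over 32851 promoters and a median of 23 CpG dinucleotides against 6. A GC box was present in 7 of the 8 (32.7% of all promoters), a CCAAT box in 4 (33.8%), the CACCC sequence that Kruppel-like factors bind in 5 (52.0%) and the MEF2 core in 1, that of Klf2 (3.2%). MEF2 factors are known activators of Klf2. The TATAAA sequence (12.4% of all promoters) and the CArG box bound by serum response factor (1.47%) were found in 0 of the 8. CACCC and GC boxes share 1 base in Klf3 and Klf13, GC boxes share 2 bases in Klf11 and CCAAT boxes share 2 in Klf9. A match is a stretch of letters and not a shown binding site.

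The whole data set bears on these genes in 3 ways. The summed counts were between 16811888 and 20817997 per library, and 0 of 15993 genes passed the edgeR quasi-likelihood test in either direction, while 1090 lay higher and 390 lower at an unadjusted p under 0.05. The irradiated libraries differed from each other more than the unirradiated ones did: 522 genes differed over 2-fold within the unirradiated pair and 2463 within the irradiated pair. The summed levels of endothelial, macrophage, lymphocyte and fibroblast markers lay higher in both irradiated libraries and most of all in irradiated 2. The antibodies named for the sort do not include one against fibroblasts, and the fibroblast genes Dcn, Pdgfrb and Fap were lower in irradiated 1 than in either unirradiated library. The summed TPM (counts per length, scaled to a fixed total per library) of 10 endothelial markers was 13.8 to 15.4 without radiation, 25.7 in irradiated 1 and 419 in irradiated 2. That of 10 macrophage markers was 47.8 to 50.8, then 186 and 1477, that of 10 lymphocyte markers 7.58 to 7.66, then 23.9 and 121, and that of 10 fibroblast markers 224 to 242, then 291 and 2016. No marker was at 0 in all libraries. The genes that the naming rule takes from these lists include Cdh5, Egfl7, Tek, Tie1 and Pecam1 (endothelium), C1qa, Cd68, Mrc1, C1qc and Lyz2 (macrophages), Ms4a1, Cd79b, Cd4 and Cd79a (lymphocytes), and Fbln1, Col1a1, Col3a1 and Lum (fibroblasts). All 10 epithelial markers were present, with summed TPM of 15474, 15577, 16283 and 12312 in unirradiated 1, unirradiated 2, irradiated 1 and irradiated 2. Krt8 and Krt18, keratins of luminal cells, were the highest of them, and Krt7, Krt5, Krt19 and Epcam had the smallest p (adjusted p = 0.512 or more by edgeR). The basal keratin Krt5 was at 60.8 and 61.0 CPM without radiation, 149 CPM in irradiated 1 and 66.8 CPM in irradiated 2, and Krt14 at 120 and 113, then 228 and 108 CPM. Both were thus highest in irradiated 1, as was Klf4, and their part in its values was not tested. In such bulk samples, fewer cells of a type and less RNA per cell cannot be told apart.

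Klf6 dominated the family per length in every library. Without radiation its TPM was 2691 and 2804, with radiation 2841 and 1955, which ranked it between 38 and 58 of 15993 tested genes. Klf4 followed at 625, 634, 1028 and 661 TPM and Klf2 at 445, 440, 592 and 524 TPM. Below them the TPM of Klf9 ran from 104 to 133, of Klf10 from 83.7 to 104, of Klf5 from 63.5 to 95.2, of Klf13 from 43.2 to 55.0 and of Klf11 from 38.4 to 51.8. Klf3, with 14.6 to 17.4 TPM, and Klf7, with 9.97 to 11.8 TPM, were the lowest. The members thus spanned a mean of 10.9 TPM to 2747 TPM without radiation.

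**Figure D1:**
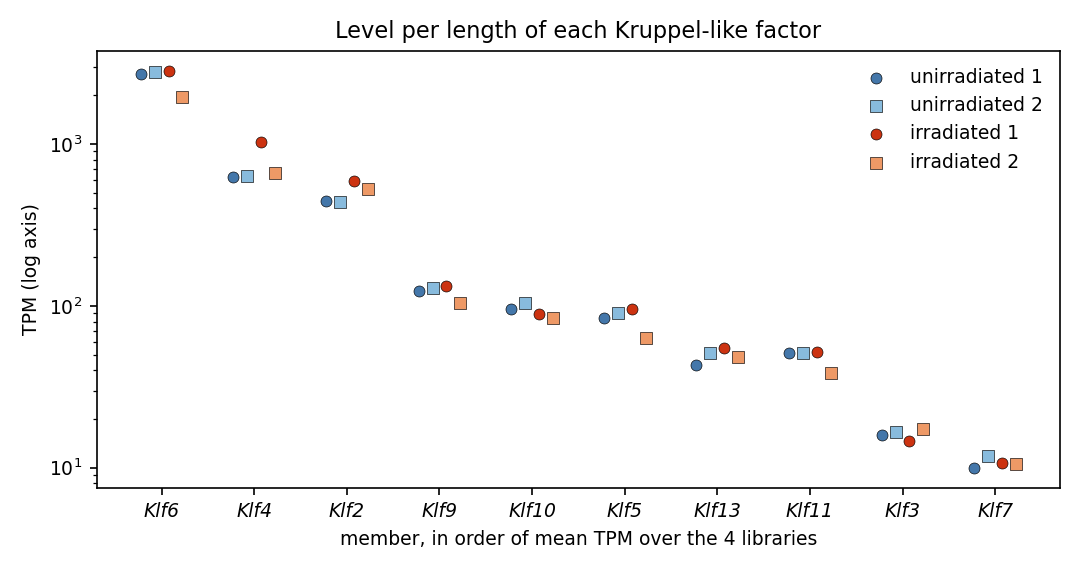
TPM on a log axis of the 10 members, ordered by their mean, with 1 point for each of the 2 unirradiated (blue) and 2 irradiated (red and orange) libraries. Klf6 lies between 1955 and 2841 TPM in all 4 libraries, and Klf7 between 9.97 and 11.8 TPM.

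The order of the levels was nearly fixed. Klf6, Klf4, Klf2 and Klf9 held places 1 to 4 and Klf3 and Klf7 places 9 and 10 in each of the 4 libraries. The place of Klf9 rests on its length of 3263 bases in the files, against 4815 exon bases in GENCODE M21. A longer length gives a lower TPM, so its place above Klf10 and Klf5 may not hold. Its place with the longer length was not computed. Neighbours in the order were apart in all libraries except for 3 pairs. Klf9 was above Klf10 in 4 of 4 libraries but the ranges overlapped, Klf10 was above Klf5 in 3 of 4, and Klf13 was above Klf11 in the 2 irradiated libraries and below it in the 2 unirradiated ones. Of the other family genes Klf16, which binds Sin3A like Klf9, reached 40.3 to 58.8 TPM, overlapping the ranges of Klf11 and Klf13 but above both in irradiated 1. Klf12 and Klf8, which bind CtBP like Klf3, stayed at 2.26 to 2.89 and 0.945 to 2.08 TPM, and the erythroid factor Klf1 at 1.51 to 3.26 TPM.

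The summed TPM of the 10 members was set to 100% to give the make-up of the family in each library. Klf6 took 64.3% and 64.7% without radiation against 57.9% in irradiated 1 and 55.8% in irradiated 2. Klf4 took 14.9% and 14.6% against 20.9% and 18.9%, and Klf2 took 10.6% and 10.2% against 12.0% and 14.9%. In each of these 3 genes the groups did not overlap. Nor did they in the shares of Klf5 and Klf11, while those of Klf3, Klf7, Klf9, Klf10 and Klf13 overlapped. The shares sum to 100%, so they are not independent. In CPM, 20.3% of all tested genes lay above without overlap and 20.0% below. That is another measure, and no such background was computed for levels relative to the summed member TPM. The summed TPM itself was highest in irradiated 1 and lowest in irradiated 2, with 4911 and 3506 TPM there and 4184 and 4332 TPM without radiation. These shares have no test across genes, and with 2 libraries a group the smallest two-sided p of an exact permutation test is 0.33.

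**Figure D2:**
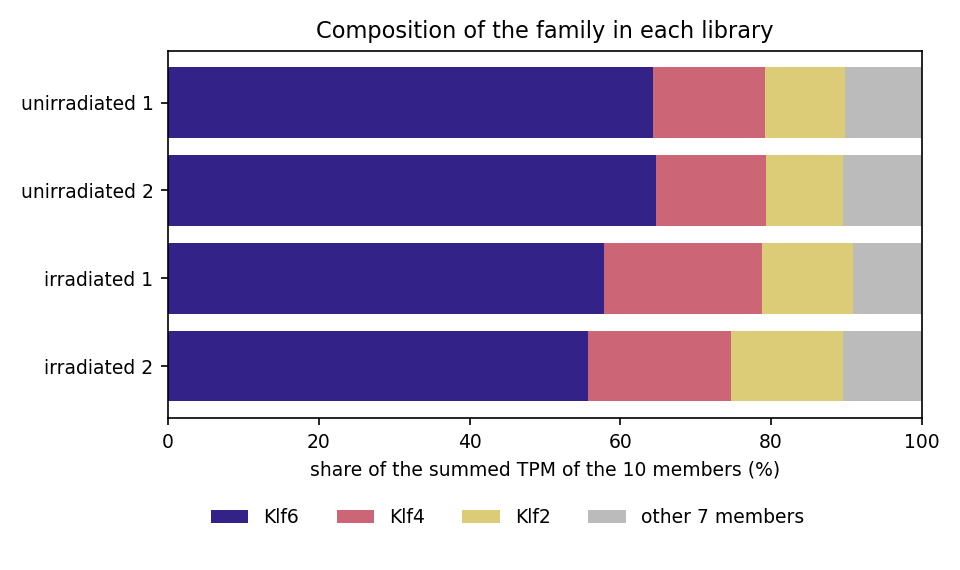
Share of each library's summed member TPM (horizontal axis, percent) held by Klf6, Klf4, Klf2 and the other 7 members together. The Klf6 share is 64.3% and 64.7% without radiation and 57.9% and 55.8% with it.

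Of the activator members, Klf2 lay furthest from the unirradiated pair relative to its error. Klf2 (ENSMUSG00000055148, chromosome 8 from 72319033 to 72321656, plus strand) was at 278 and 263 CPM, counts scaled to the TMM-normalized library size, without radiation and at 381 and 347 CPM in irradiated 1 and 2. The groups did not overlap, and the irradiated libraries were the higher ones. The means were 364 ± 24.0 CPM with it and 270 ± 10.2 CPM without (SD, n = 2 each), a log2 fold change of 0.43 (SE 0.12) with a 95% interval from 0.11 to 0.74. By the edgeR quasi-likelihood test this did not pass over all genes (adjusted p = 0.491), and limma-voom gave an adjusted p of 0.789.

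Whether Klf2 passed turned on the test used. DESeq2 on the same genes called it higher at an adjusted p of 0.0467, among 2.96% of genes called higher, but at 0.0705 without the filter on low counts, a setting chosen after seeing the data, in which 2.76% of genes were called. Its difference from the mean of the unirradiated libraries was 0.49 on the log2 scale in irradiated 1 and 0.36 in irradiated 2. Klf2 is abundant in endothelium and lymphocytes, whose markers were 419 and 121 TPM in sum in irradiated 2. These sums were 25.7 and 23.9 TPM in irradiated 1. Their part in the difference of Klf2 was not tested.

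Klf4 (ENSMUSG00000003032, chromosome 4 from 55527143 to 55532466, minus strand), which opposes cell cycle entry in several epithelia, had the largest fold change of the 10. Without radiation it was at 644 and 626 CPM, with radiation at 1092 and 723 CPM, irradiated 1 being the higher. The groups did not overlap, but the irradiated libraries lay far from each other, at 907 ± 261 CPM against 635 ± 12.4 CPM (SD, n = 2 each). The log2 fold change was 0.52 (SE 0.23) with a 95% interval from -0.076 to 1.11, and it did not pass by edgeR (adjusted p = 0.584) or by DESeq2 (adjusted p = 0.287). Without irradiated 1 its log2 fold change was 0.17.

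Klf6 (ENSMUSG00000000078, chromosome 13 from 5861482 to 5870394, plus strand), an activator studied as a tumor suppressor, had counts from 57716 to 86192 per library. It was at 3992 and 3986 CPM without radiation, 4348 CPM in irradiated 1 and 3077 CPM in irradiated 2. Irradiated 1 was thus the highest of the 4 libraries and irradiated 2 the lowest. The log2 fold change was -0.10 (SE 0.23) with a 95% interval from -0.71 to 0.50.

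Klf5 (ENSMUSG00000005148, chromosome 14 from 99298691 to 99315036, plus strand), which drives proliferation in basal and progenitor epithelial cells, was likewise highest in irradiated 1 and lowest in irradiated 2. It was at 148 and 153 CPM without radiation and at 172 and 118 CPM in the irradiated pair, with a log2 fold change of -0.049 (SE 0.20). Klf7 (ENSMUSG00000025959, chromosome 1 from 64029447 to 64122282, minus strand), known from neurons and fat cells, was the member with the least spread between the irradiated libraries. It was at 27.4 and 31.1 CPM without radiation and 30.3 and 30.9 CPM with it (log2 fold change 0.065, SE 0.13). Of its exon bases 39.3% are shared with Gm26649 on the opposite strand, which had 0 counts in all 4 libraries. The library kit keeps no strand, so reads in these bases could belong to either gene. How such reads were assigned is not stated, and they may have gone uncounted. The TPM of Klf7 uses its full length and could then be too low.

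**Figure D3:**
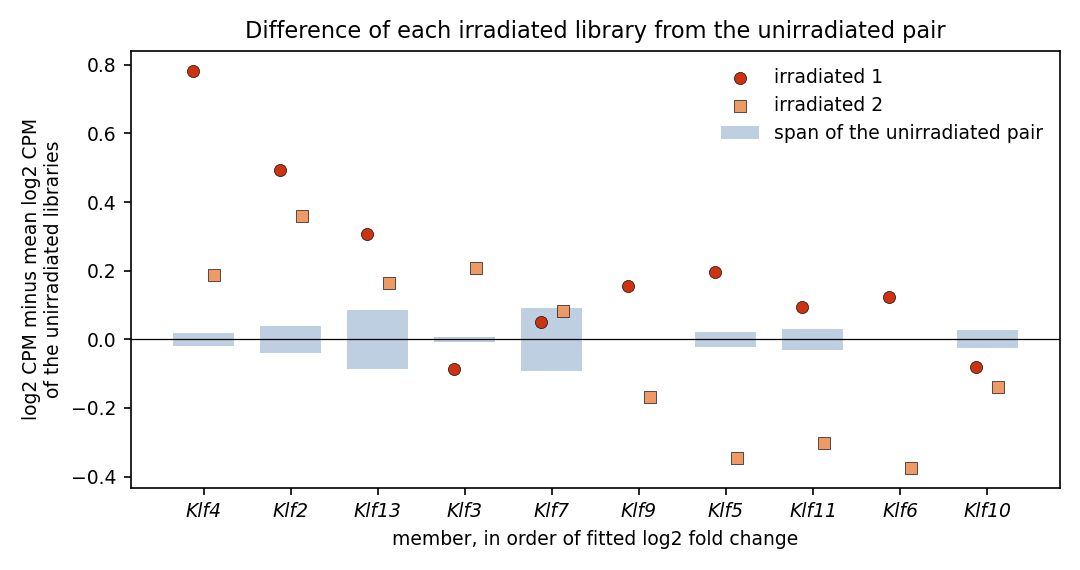
Log2 CPM of irradiated 1 (circles) and irradiated 2 (squares) minus the mean of the unirradiated libraries, for the 10 members, with bars for the span of the unirradiated pair. Klf4, Klf2 and Klf13 lie above the bar in both irradiated libraries and Klf10 below it in both, while Klf9, Klf5, Klf11 and Klf6 lie above it in irradiated 1 and below it in irradiated 2.

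The repressor members that bind Sin3A gave no shared direction. Klf13 (ENSMUSG00000052040, chromosome 7 from 63886351 to 63938915, minus strand), known for late activation of Ccl5 in T cells, was at 110 and 124 CPM without radiation and 144 and 131 CPM with it. The groups did not overlap in CPM (log2 fold change 0.24, SE 0.12, adjusted p = 0.639 by edgeR). In TPM they did, at 43.2 and 50.8 against 55.0 and 48.5.

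Klf10 (ENSMUSG00000037465, chromosome 15 from 38291463 to 38300706, minus strand), an early target of TGF-beta, lay the other way. It was at 136 and 140 CPM without radiation against 130 and 125 CPM, so that the irradiated libraries were the 2 lowest. This difference was small, with a log2 fold change of -0.11 (SE 0.10) and a 95% interval from -0.37 to 0.15.

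Klf11 (ENSMUSG00000020653, chromosome 12 from 24651274 to 24662789, plus strand), another gene induced by TGF-beta, was at 75.1 and 72.0 CPM without radiation, 78.4 CPM in irradiated 1 and 59.7 CPM in irradiated 2. Klf9 (ENSMUSG00000033863, chromosome 19 from 23141226 to 23166911, plus strand), a glucocorticoid-induced gene, was at 136 CPM in each unirradiated library, 151 CPM in irradiated 1 and 121 CPM in irradiated 2. Both thus were highest in irradiated 1 and lowest in irradiated 2, as Klf5 and Klf6 were. The log2 fold changes were -0.091 (SE 0.16) for Klf11 and 0.0035 (SE 0.14) for Klf9.

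Klf3, the only member that binds CtBP, ran the opposite way between the irradiated libraries. Klf3 (ENSMUSG00000029178, chromosome 5 from 64803388 to 64832901, plus strand) was at 60.9 and 60.3 CPM without radiation, 57.1 CPM in irradiated 1 and 69.9 CPM in irradiated 2. Irradiated 2 was thus the highest library and irradiated 1 the lowest (log2 fold change 0.067, SE 0.13). Of its exon bases 3.59% are shared with Gm20033 on the opposite strand, which had 20 to 29 counts per library. The 10 members lie on 10 different chromosomes, and the other 8 share no exon bases with another gene in GENCODE M21.

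Counted together, the members did not stand out from the background. By edgeR 0 of 10 passed in either direction, as did 0% of all genes each way, and 1 of 10, Klf2, had an unadjusted p under 0.05 on the higher side, where 6.82% of all genes did, and 0 on the lower side, where 2.44% did. DESeq2 called 1 of 10 higher and 0 lower, against 2.96% and 0.380% of all genes, and limma-voom called 0. In 3 of 10 members, Klf2, Klf4 and Klf13, the irradiated libraries were the 2 highest, against 20.3% of all tested genes, and in 1, Klf10, the 2 lowest, against 20.0%. The median log2 fold change was 0.034 over the members and 0.0040 over all genes.

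The members differed little between the unirradiated libraries and more between the irradiated ones. The median absolute log2 difference of the 10 members was 0.047 between the unirradiated pair and 0.31 between the irradiated pair, against 0.13 and 0.33 over all tested genes, and 0 members differed over 2-fold within either pair. The largest was that of Klf4, 0.60 between the irradiated libraries. Counts of the members ran from 528 (Klf7) to 86192 (Klf6), and their spread was not compared with that of genes of like counts. Irradiated 2 was the lowest of the 4 libraries in 5 of 10 members, Klf5, Klf6, Klf9, Klf10 and Klf11, as it was in 27.9% of all tested genes.

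With 1 irradiated library in the fit, different members passed. Without irradiated 2 the edgeR test called Klf2, Klf4 and Klf13 higher, with log2 fold changes of 0.48, 0.77 and 0.29, and 0 members lower, where 11.9% of genes were called higher and 13.9% lower. Without irradiated 1 it called Klf2 higher (0.34) and Klf5, Klf6 and Klf11 lower (-0.36, -0.39 and -0.32), where 15.9% and 7.95% of genes were called. Both fits share the 2 unirradiated libraries. Such a fit assumes that the lone irradiated library varies like the unirradiated pair, while the irradiated pair differed more, as given above.

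**Figure D4:**
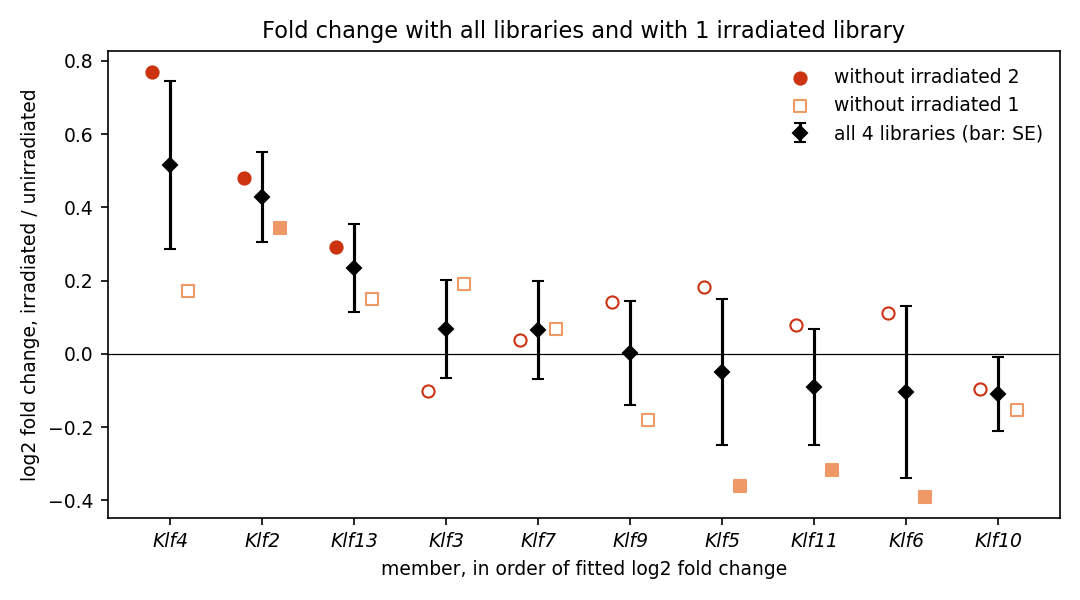
Log2 fold change of irradiated over unirradiated libraries for the 10 members, with all 4 libraries (diamonds, bars are SE), without irradiated 2 (circles) and without irradiated 1 (squares); filled symbols passed an adjusted p of 0.05 in the fits with 1 irradiated library. Klf2 is filled in both, at 0.48 and 0.34, whereas Klf3, Klf5, Klf6, Klf9 and Klf11 lie on opposite sides of 0.

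Ratios between members within a library do not depend on how libraries are scaled. Of all 45 pairs of members, 23 had ratios that did not overlap between the groups. They included 8 of the 9 ratios of Klf2 and 5 of the 9 of Klf4. The 9 ratios of a gene share its own values, so they are not independent. No share over all tested genes was computed for ratios to Klf2 or Klf4, nor for pairs of other genes. Whether 23 of 45 is more than other genes give is therefore not known. The ratio of Klf2 to Klf4 did overlap. The ratios named here were chosen after their values were seen. The log2 TPM ratio of Klf4 to Klf6 was -2.11 and -2.14 without radiation against -1.47 and -1.56 with it. That of Klf4 to Klf5, which have opposed roles in epithelial growth, was 2.89 and 2.81 against 3.43 and 3.38, although Klf4 and Klf5 themselves each differed by over 0.5 log2 units between the irradiated libraries. The ratio of Klf2 to Klf6 was -2.60 and -2.67 against -2.26 and -1.90. Of the 9 ratios to Klf6, 5 were above in both irradiated libraries and 0 below, against 24.9% and 5.38% of all tested genes.

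As a set, early response genes were abundant in every library. The list of 18 such genes, which digestion of tissue also induces, held 77848 and 79854 TPM in sum without radiation, 81370 in irradiated 1 and 62760 in irradiated 2. Fos was the most abundant at 12788 and 12209 CPM against 12942 and 10551 CPM, and Fosb was at 9319 and 9704 CPM against 13450 and 8003 CPM. Irradiated 2 was the lowest library in 16 of the 18, against 27.9% of all tested genes. The part of this in the values of Klf5, Klf6, Klf9, Klf10 and Klf11, also lowest there, was not tested.

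Of these 18 genes 0 passed by edgeR in either direction, and the median log2 fold change was -0.052. In 1 gene the groups lay above and in 3 below, against 20.3% and 20.0% of all tested genes. The one above was Dusp1, a phosphatase gene that shuts off MAP kinases, at 1939 and 1866 CPM against 2437 and 2150 CPM. Ier3 (1175 and 1091 against 1010 and 908 CPM), Btg2 (2298 and 2260 against 2016 and 1884 CPM) and Zfp36 (6355 and 6048 against 5887 and 5281 CPM) lay below. Of the members named above as early response genes, Klf2 and Klf4 lay above, as Dusp1 did. Klf10 lay below, as Ier3, Btg2 and Zfp36 did, and in Klf6 the groups overlapped. In the rest of the 18 genes the groups overlapped. The part of early response induction in the values of Klf2, Klf4, Klf6 and Klf10 was not tested.

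Among the remaining family genes and the related Sp factors no gene passed. Of 7 further Klf genes 5 were tested, 0 passed and the groups overlapped in all 5, with a median log2 fold change of 0.028. Over all tested genes 20.3% lay above and 20.0% below. Klf16 was at 43.2 CPM in each unirradiated library, 54.8 CPM in irradiated 1 and 38.6 CPM in irradiated 2. Klf8 was at 3.66, 2.77, 1.72 and 2.77 CPM (log2 fold change -0.52, SE 0.43), Klf1 at 1.68, 1.24, 0.807 and 1.60 CPM and Klf12 at 5.68, 6.55, 6.81 and 5.65 CPM. Klf15 had 23, 19, 0 and 43 counts, where 0 counts allow up to 0.151 CPM by counting error alone, Klf14 had at most 1 count and Klf17 none in any library.

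Sp factors bind GC boxes through the same kind of zinc fingers. Of 9 Sp genes 4 were tested, 0 passed and 3 lay above, as did 20.3% of all tested genes. Sp2 was at 22.9 and 23.5 CPM against 28.7 CPM in each irradiated library (log2 fold change 0.31, SE 0.13, adjusted p = 0.556 by edgeR). Sp4 was at 7.55 and 7.14 CPM against 9.48 and 9.76 CPM (log2 fold change 0.39, SE 0.22), Sp3 at 72.5 and 64.6 CPM against 73.4 and 73.6 CPM, and Sp1 at 85.3 and 91.2 CPM against 85.8 and 82.4 CPM. Sp5, Sp6, Sp7, Sp8 and Sp9 had at most 8 counts in any library.

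Among 9 cofactor genes 0 passed, 1 lay above and 2 below (20.3% and 20.0% of all tested genes), with a median of -0.022. Ctbp2, which encodes a corepressor recruited by Klf3, was at 116 and 114 CPM against 94.9 and 91.1 CPM (log2 fold change -0.31, SE 0.098, adjusted p = 0.496 by edgeR), whereas its paralog Ctbp1 was at 199 CPM in each unirradiated library against 204 and 213 CPM. The acetyltransferase genes Crebbp (71.2 and 86.7 against 103 and 84.3 CPM) and Ep300 (60.2 and 68.0 against 87.4 and 64.6 CPM) were highest in irradiated 1. Sin3b was at 143 and 138 against 153 and 124 CPM and the deacetylase gene Hdac2 at 67.5 and 61.8 against 56.4 and 64.4 CPM.

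Among 12 regulators of the family 0 passed, 5 lay above and 0 below (20.3% and 20.0% of all tested genes), with a median of 0.11. Mapk7, the ERK5 kinase gene that acts through MEF2 factors on Klf2, was at 35.5 and 38.6 against 47.3 and 38.6 CPM. Of the MEF2 genes, Mef2a had 58.2 and 56.9 CPM without radiation and 67.3 and 60.3 CPM with it, and Mef2d had 146 and 152 against 197 and 143 CPM. Mef2c, which endothelium and macrophages also express, was at 9.14 and 8.20 CPM, 8.53 CPM in irradiated 1 and 26.2 CPM in irradiated 2. Smad3, a mediator of TGF-beta signals to Klf10 and Klf11, had 48.2 and 49.7 against 53.4 and 59.0 CPM, and Srf, the serum response factor gene, 234 and 240 against 273 and 188 CPM.

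Of 13 known target genes of the family, 11 lay above and 0 below (20.3% and 20.0% of all tested genes), 7 had an unadjusted p under 0.05 on the higher side (6.82%), 0 passed by edgeR, and the median was 0.91. Lgals3, the galectin-3 gene that Klf3 represses and macrophages express, was at 82.3 and 87.1 CPM against 229 and 148 CPM (log2 fold change 1.15, SE 0.23), with an adjusted p of 0.489 by edgeR and 0.000675 by DESeq2. Other large differences were in genes of endothelium and lymphocytes: S1pr1 was at 1.44 and 0.944 CPM against 3.58 and 44.2 CPM, while Eng had levels of 11.5 and 11.3 CPM against 16.6 and 203 CPM. They were highest in irradiated 2, as the markers of those cells were, and the part of such cells in these values was not tested. Cdkn1a, the p21 gene that Klf4 and Klf6 activate, was at 161 and 157 CPM against 237 and 182 CPM. Ccnd1, the cyclin D1 gene that Klf5 activates, was at 201 and 209 CPM against 179 and 202 CPM. The part of the members in these values was not tested.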

How the data were processed

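RNA of 4 libraries was measured by poly(A) RNA sequencing with a non-directional kit, per the labels' protocols. The deposited tables hold the authors' raw counts for each gene, beside positions and gene lengths. STAR 2.5, HTSeq 0.6.1 and DESeq2 are named with the mm10 build, per the submitters' processing notes; how reads were assigned is not stated there. The columns that 2 deposited tables share were identical at 54532 genes.

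Groups come from the sample titles. Counts were tested with edgeR 4.0.16 in R 4.3.3 (filterByExpr with a minimum count of 10 and a minimum total of 15, TMM, quasi-likelihood test, two-sided, Benjamini-Hochberg adjustment over 15993 genes, threshold 0.05). The SE is the log2 fold change divided by the square root of F. Log2 CPM used a prior count of 2, and TPM the gene lengths of the files. The steps were tested on simulated data. Alternatives were other scalings and filters, a block for the replicate number, leaving out each library, DESeq2 1.42.0 and limma-voom (limma 3.58.1). Of the 54532 gene IDs 54409 were in GENCODE M21, 98.3% of them at the same position; Klf9 is not.

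The members, lists and tests were chosen with earlier results of these data known. All members are named, and in each other list the 4 tested genes with the smallest p and the 2 with the highest average log2 CPM. Some genes that this rule names are not reported here.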

Additional observations from a re-analysis of the deposited data

How the results depend on the processing

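Of 120 member fold changes recomputed under 12 alternatives, 100 kept their direction and their side of the threshold, 8 also passed it and 12 changed sign. Klf2, Klf4, Klf10 and Klf13 kept their direction in all 12. Klf9, whose fold change is near 0, was at -0.0096 with library size alone, -0.010 without a filter, -0.0053 with the replicate number as a block and -0.0064 by limma-voom. With 1 library left out the log2 fold change ran from -0.18 to 0.14 for Klf9, from -0.034 to 0.15 for Klf7, from -0.10 to 0.19 for Klf3, from -0.36 to 0.18 for Klf5, from -0.39 to 0.11 for Klf6 and from -0.32 to 0.079 for Klf11. From 0 to 3 members passed higher and 0 to 3 lower, among 0 to 2713 genes higher and 0 to 2355 lower. DESeq2 called 437 genes higher and 56 lower, with 1 member higher, and without the filter, added after seeing the data, 450 and 50. edgeR without a filter called 1338 higher and 105 lower, 0 of them members. With the replicate block it called 2 genes higher and 0 lower, 0 of them members. Same-numbered libraries deviated from their group means with a correlation of -0.099 across genes. With 2 libraries a group this value cannot show whether they are paired. The cause of the differences between the alternatives was not tested. By counts without length Klf6 took 71.2% of the family without radiation and 65.0% with it. Low counts limit Klf1, Klf8 and Klf15.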
